A study of Mus musculus with 9 samples.

Results

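The antioxidant and glutathione transferase enzymes were taken from the expression arrays by a rule on gene symbols. The set held every gene named Sod, Prdx or Gpx with a digit, every gene that begins with Gsta, Gstm, Gstp, Gstt, Gsto, Gstk or Mgst and ends in a digit, and Cat, Gss, Glrx, Txn1 and Txn2. It came to 43 of the 19505 named genes on the array. Each of the 43 was read by 1 transcript of the 22206 measured.

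The study asked how a synthetic quinic acid derivative, 3,4,5-tri-feruloylquinic acid (TFQA), acts on the brain of a mouse model of ageing. SAMP8, senescence-accelerated mouse prone 8, is an inbred strain with early learning and memory deficits, and SAMR1, senescence-accelerated mouse resistant 1, is the related strain used as its control. Total RNA was hybridised to Clariom S Mouse arrays, 1 array a sample, and each value is a log2 signal, so that 1 unit is a 2-fold difference. The arrays fell into 3 groups of 3. SAMP8 TFQA mice were male, 6 months old and given TFQA by mouth at 1 mg/kg for 37 days. SAMP8 water mice were male SAMP8 mice of the same age given water, and SAMR1 water mice were male SAMR1 mice of the same age given water. No group combined SAMR1 with TFQA, so an effect of the compound could be read only in SAMP8. Nothing in the sources states that the 3 arrays of a group came from separate mice, and the p-values measure only the spread between these arrays. SAMP8 and SAMR1 also differ in genome sequence, and a base difference under a probe cannot be told apart from a difference in RNA.

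Superoxide dismutases turn superoxide, a by-product of respiration and of oxidases, into hydrogen peroxide. Catalase, the glutathione peroxidases and the peroxiredoxins then reduce hydrogen peroxide and lipid peroxides, drawing on the glutathione and thioredoxin systems. The glutathione transferases join glutathione to reactive products such as lipid aldehydes. Many of these genes carry an antioxidant response element in their promoters and are induced by the transcription factor NRF2. Brain tissue is rich in oxidisable lipid and leans on these enzymes, with glutathione transferases of the mu class prominent in astrocytes.

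To show where an NRF2 site could lie, the 300-base promoter windows of RefSeq (250 bases before to 50 after each start, GRCm38.p6) were searched on both strands for the core of the antioxidant response element, TGACNNNGC. The 40 members with a window included 6 with a match (15.0%), against 14.0% of all 27025 genes with one. The 6 matches are printed 5′ to 3′ with 10 bases on each side and the matching letters in capitals. In Prdx1, Mgst1 and Sod1 the match is on the opposite strand, and the Prdx1 match also holds TGANTCA, the AP-1 motif.
Gsta3, chr1:21240454-21240482, plus strand: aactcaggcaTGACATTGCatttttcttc
Gstm5, chr3:107895802-107895830, plus strand: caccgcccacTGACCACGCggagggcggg
Gstm7, chr3:107931725-107931753, minus strand: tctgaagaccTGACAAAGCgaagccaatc
Prdx1, chr4:116685456-116685484, plus strand: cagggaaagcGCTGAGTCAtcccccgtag
Mgst1, chr6:138140461-138140489, plus strand: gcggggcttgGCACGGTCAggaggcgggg
Sod1, chr16:90220696-90220724, plus strand: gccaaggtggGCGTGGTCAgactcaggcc
A match describes these letters only and is not evidence of binding.

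The array medians were 6.76 to 6.81 and arrays correlated with each other at 0.9876 to 0.9934 over all transcripts. The deposited labels call the material brain and neural stem cells, whereas the study's methods call it hippocampus. The hippocampal neuron marker Neurod6 had a mean signal at percentile 97.9 of all transcripts and Prox1 at percentile 87.2. Other markers of the same list stood lower, such as Pou3f1 at percentile 57.0, Dsp at 43.2 and Tdo2 at 35.8. The stem cell marker Nes was at percentile 34.0 and the proliferation marker Mki67 at percentile 27.1. These percentiles do not settle which tissue was used. The second TFQA array stood apart in cell markers. The mean deviation of 10 striatal neuron markers was -0.46, 3.14 and -0.47 in the SAMP8 TFQA arrays, -0.79, -0.22 and -0.73 in SAMP8 water and -0.705, 0.57 and -0.33 in SAMR1 water. Values of SAMP8 TFQA past the study's threshold are therefore also given without that array for each member. Of 12 meningeal fibroblast markers, 11 had a mean in SAMP8 water above that of SAMR1 water, and their summed log2 signal was 11.48 to 12.49 in SAMP8 TFQA, 12.26 to 12.83 in SAMP8 water and 11.19 to 11.68 in SAMR1 water. Of 11 choroid plexus markers, 11 had the higher mean in SAMP8 water, with summed signals of 18.31 to 19.10 in SAMP8 TFQA, 19.03 to 19.45 in SAMP8 water and 17.71 to 18.98 in SAMR1 water. No marker of either list was at 0. In bulk tissue, fewer cells of a type and less RNA per cell cannot be told apart.

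In SAMP8 water vs. SAMR1 water, none of the 43 genes passed an adjusted p of 0.05, against 0.509% of all transcripts. The adjusted p is limma's moderated test with Benjamini-Hochberg adjustment over all 22206 transcripts, and the smallest among the members was 0.216. At the threshold used in the study (unadjusted p under 0.05 and fold change over 1.1), 2 genes were higher in SAMP8 water, Gstm2 and Cat, which is 4.65% of the members, and 0 were lower. The same threshold took in 3.4% of all transcripts as higher and 2.7% as lower. The arrays of both groups did not overlap for 7 members (16.3%), against 11.8% of all transcripts; Cat, Gpx7, Gstm2 and Sod1 were higher in SAMP8 water and Glrx, Gsta4 and Gsto1 lower. The median log2 fold change was 0.03 over the members and -0.01 over all transcripts.

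In SAMP8 TFQA vs. SAMP8 water, again none of the 43 passed the adjusted test, and the adjusted test took in 0.0% of all transcripts. The smallest adjusted p among the members was 0.561. At the study's threshold 1 gene was lower after TFQA, Gpx7, which is 2.33% of the members, and 0 were higher, against 3.76% of all transcripts lower and 3.36% higher. Groups did not overlap for 4 members (9.30%: Gpx7, Gstm5, Gstm7 and Gstp1), each of them lower after TFQA, against 11.8% of all transcripts. The median log2 fold change of the members was -0.04, against 0.01 over all transcripts. Without the second TFQA array it was -0.04 and the count at the study's threshold was again 1.

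In SAMP8 TFQA vs. SAMR1 water, none passed the adjusted test, against 0.576% of all transcripts. The smallest adjusted p was 0.252. At the study's threshold 1 gene was higher in SAMP8 TFQA, Gstm2, and 3 were lower, Gstm6, Mgst2 and Gstp2, together 9.30% of the members; without the second TFQA array the count was 3. The background was 4.07% of all transcripts higher and 3.99% lower. Groups did not overlap for 6 members (14.0%), against 12.3% of all transcripts. This comparison shares its arrays with the other two, so a gene set apart in 1 group appears in a pair of comparisons.

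The intervals bound how large a difference these arrays could have missed. For SAMP8 TFQA vs. SAMP8 water, the 95% interval of all 43 members lay within a 2-fold difference in either direction, and that of 24 lay within 1.5-fold. For SAMP8 water vs. SAMR1 water, 40 lay within 2-fold and 21 within 1.5-fold, and the 3 whose interval reached 2-fold were Gpx8, Gstm2 and Mgst1. The 7 members with a mean signal over 13 (Gpx4, Gstm1, Gstm5, Prdx1, Prdx2, Sod1 and Sod2) had log2 fold changes of -0.23 to 0.17 after TFQA, with intervals that together span -0.59 to 0.49. In SAMP8 water vs. SAMR1 water the same 7 gave -0.14 to 0.12, with intervals that span -0.47 to 0.46. Of the 43, 9 lay among the dimmest 40% of transcripts, where a change of RNA may hardly move the signal (Gpx2, Gpx5, Gpx6, Gsta2, Gsto2, Gstp3, Gstt2, Gstt3 and Gstt4).

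**Figure D1:**
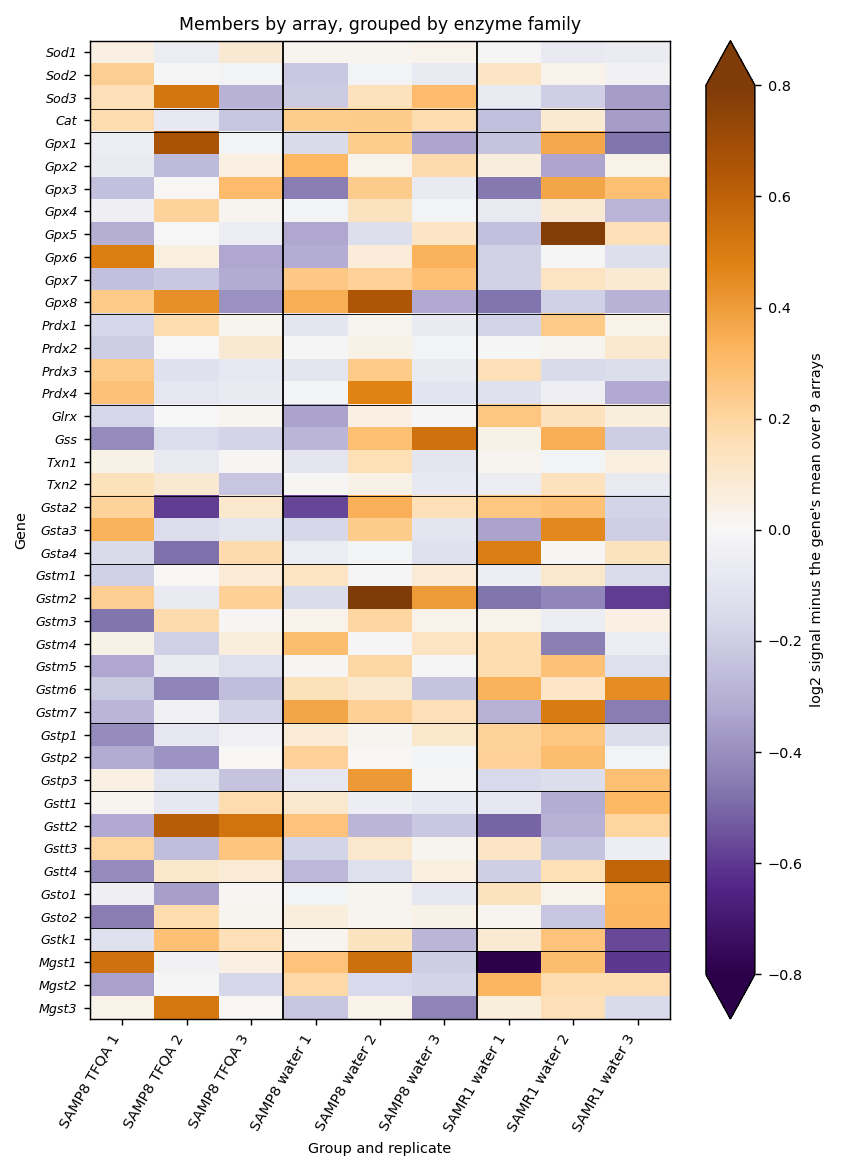
Each cell is the log2 signal of 1 gene (vertical axis, grouped by enzyme family) on 1 array (horizontal axis, by group and replicate) minus that gene's mean over the 9 arrays. Gstm2 is below its mean on the 3 SAMR1 water arrays, Gpx7 is below its mean on the 3 SAMP8 TFQA arrays, and most other genes show no block of colour that follows a group.

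The superoxide dismutases included the steadiest gene of the set. Sod1, the cytosolic copper-zinc enzyme, had log2 signals of 13.75, 13.65 and 13.79 in SAMP8 TFQA, 13.72, 13.72 and 13.73 in SAMP8 water and 13.69, 13.63 and 13.64 in SAMR1 water. Its pooled SD of 0.0457 was the lowest of the 43 (median 0.211 over the members, 0.235 over all transcripts), and although the SAMP8 water arrays lay above the SAMR1 water arrays, the difference was only 0.07 (95% interval -0.23 to 0.37). Sod2, the mitochondrial manganese enzyme, read 14.05, 13.81 and 13.80 in SAMP8 TFQA, 13.60, 13.80 and 13.75 in SAMP8 water and 13.94, 13.85 and 13.79 in SAMR1 water. These ranges overlapped between SAMP8 TFQA and SAMP8 water only at 13.80, with a log2 fold change of 0.17 (SE 0.15, adjusted p = 0.833, limma, n = 3 arrays a group). Sod3, the extracellular enzyme, ranged from 5.68 to 6.49 in SAMP8 TFQA, 5.76 to 6.27 in SAMP8 water and 5.61 to 5.90 in SAMR1 water, with a log2 fold change of 0.29 in SAMP8 water vs. SAMR1 water and 0.05 after TFQA.

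Catalase, the peroxisomal enzyme that splits hydrogen peroxide, was among the 2 members past the study's threshold in SAMP8 water vs. SAMR1 water. Cat gave 10.55, 10.30 and 10.15 in SAMP8 TFQA, 10.61, 10.62 and 10.55 in SAMP8 water and 10.13, 10.46 and 10.02 in SAMR1 water. The SAMP8 water arrays were tightly grouped above all 3 SAMR1 water arrays, and the SAMP8 TFQA arrays spread between them. Relative to SAMR1 water, Cat was 1.31-fold higher in SAMP8 water (log2 fold change 0.39, SE 0.17, unadjusted p = 0.0388, adjusted p = 0.79, limma). When each of the 9 arrays was left out in turn, Cat stayed past the threshold in 4 of 9 fits, and it was at 0.30 without the third SAMR1 water array. After TFQA it was at -0.26 (SE 0.17, adjusted p = 0.769, limma) relative to SAMP8 water.

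Among the glutathione peroxidases, Gpx7 separated TFQA from water, with a mean signal only at percentile 45.9 of all transcripts. Gpx7 is a peroxidase of the endoplasmic reticulum that uses cysteine rather than selenocysteine, and its gene lies at chr4:108400217-108406713 (GRCm38.p6). Its log2 signals were 6.15, 6.17 and 6.08 in SAMP8 TFQA, 6.65, 6.61 and 6.68 in SAMP8 water and 6.21, 6.52 and 6.48 in SAMR1 water. All 3 TFQA arrays lay below every array of both other groups, and the SAMP8 water arrays lay above every SAMR1 water array. Gpx7 averaged 6.13 ± 0.05 in SAMP8 TFQA and 6.65 ± 0.04 in SAMP8 water (SD, n = 3 each), a log2 fold change of -0.51 (SE 0.15, 95% interval -0.83 to -0.20, 1.43-fold lower, unadjusted p = 0.00424, adjusted p = 0.561, limma). It was past the study's threshold in 9 of 9 fits that left out 1 array, at -0.53 to -0.49, and at -0.53 without the second TFQA array. In SAMP8 water vs. SAMR1 water Gpx7 was at 0.24 (adjusted p = 0.902, limma), and in SAMP8 TFQA vs. SAMR1 water at -0.27 (adjusted p = 0.679, limma), the second of which was at -0.37 and past the study's threshold without the first SAMR1 water array.

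Gpx8, the other cysteine peroxidase of the endoplasmic reticulum (mean signal at percentile 44.5), did not share that pattern. It read 6.51, 6.70 and 5.87 in SAMP8 TFQA, 6.61, 6.91 and 5.94 in SAMP8 water and 5.79, 6.07 and 5.97 in SAMR1 water. In each SAMP8 group 2 arrays lay above all SAMR1 water arrays and the third did not, and the SAMP8 water vs. SAMR1 water value was 0.54 (SE 0.26, adjusted p = 0.822, limma). That value was 0.33 without the second SAMP8 water array and 0.82 without the third. It passed the study's threshold without the third SAMP8 water array and without the third TFQA array. It also passed with only the 2 groups compared and with the replicate number as a block in the fit. Gpx4, which reduces lipid hydroperoxides in membranes and restrains ferroptosis, gave 13.97, 14.22 and 14.03 in SAMP8 TFQA, 13.99, 14.15 and 13.99 in SAMP8 water and 13.94, 14.10 and 13.73 in SAMR1 water. The 3 groups overlapped, with log2 fold changes of 0.03 (95% interval -0.31 to 0.37) after TFQA and 0.12 (-0.22 to 0.46) between the strains. Gpx2, known as the gastrointestinal form and dim here, read 5.63, 5.43 and 5.74 in SAMP8 TFQA, 6.01, 5.72 and 5.87 in SAMP8 water and 5.75, 5.36 and 5.73 in SAMR1 water. Its SAMP8 water arrays tended above the others without clearing them, at -0.27 after TFQA and 0.25 between the strains. Gpx1, the widespread cytosolic selenoenzyme, was at 0.28 after TFQA with a 95% interval of -0.28 to 0.84, and the remaining Gpx3, Gpx5 and Gpx6 overlapped between groups in each comparison. Counted by sign, 6 of 8 glutathione peroxidases had a higher mean in SAMP8 water relative to SAMR1 water, and 4 of 8 in SAMP8 TFQA relative to SAMP8 water.

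The 4 peroxiredoxins read here (Prdx1 to Prdx4), which reduce peroxides with electrons from thioredoxin, differed little. No transcript carried the symbol Prdx5 or Prdx6, so these were not read. Prdx2, an abundant neuronal form, read 14.19, 14.39 and 14.48 in SAMP8 TFQA, 14.38, 14.43 and 14.37 in SAMP8 water and 14.38, 14.41 and 14.49 in SAMR1 water. The TFQA arrays were the most spread and overlapped both other groups, and the log2 fold changes were -0.04 (95% interval -0.35 to 0.27) after TFQA and -0.03 (-0.35 to 0.28) between the strains. Over the 4 peroxiredoxins the values ran from -0.08 (Prdx4) to 0.06 (Prdx1) after TFQA and from -0.08 (Prdx1) to 0.28 (Prdx4) in SAMP8 water vs. SAMR1 water.

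The electron donors were likewise close between groups. Txn1, cytosolic thioredoxin, read 13.02, 12.91 and 12.99 in SAMP8 TFQA, 12.88, 13.14 and 12.88 in SAMP8 water and 13, 12.96 and 13.03 in SAMR1 water. The groups overlapped fully, at 0.01 after TFQA and -0.03 between the strains, and mitochondrial Txn2 lay at 0.01 and -0.02. Glrx, the glutaredoxin that removes glutathione from protein cysteines, gave 11.15, 11.32 and 11.34 in SAMP8 TFQA, 10.98, 11.37 and 11.31 in SAMP8 water and 11.58, 11.46 and 11.39 in SAMR1 water. Every SAMP8 array lay below every SAMR1 array, by a mean of -0.21 (adjusted p = 0.785, limma) in SAMP8 TFQA and -0.26 (SE 0.16, adjusted p = 0.906, limma) in SAMP8 water. Gss, which completes glutathione synthesis, read 6.79, 7.06 and 7.02 in SAMP8 TFQA, 6.92, 7.49 and 7.74 in SAMP8 water and 7.24, 7.55 and 7.0 in SAMR1 water. The first TFQA array lay below both other groups and the other 2 among their lower arrays, at -0.43 relative to SAMP8 water (SE 0.22, adjusted p = 0.723, limma), and that value was -0.66 without the first SAMP8 water array and -0.25 without the third.

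The 7 mu class transferases held the largest difference between the strains among the 43 genes. Their genes stand together at chr3:107895854-108045179 (GRCm38.p6), in the order Gstm5, Gstm7, Gstm6, Gstm3, Gstm2, Gstm1 and Gstm4. Gstm2 read 7.92, 7.62 and 7.91 in SAMP8 TFQA, 7.54, 8.53 and 8.09 in SAMP8 water and 7.22, 7.27 and 7.10 in SAMR1 water. All 6 SAMP8 arrays lay above all 3 SAMR1 water arrays, and the 2 SAMP8 groups overlapped. Gstm2 averaged 8.05 ± 0.50 in SAMP8 water and 7.20 ± 0.09 in SAMR1 water (SD, n = 3 each), 1.81-fold higher (log2 fold change 0.86, SE 0.22, 95% interval 0.37 to 1.34, unadjusted p = 0.00226, adjusted p = 0.216, limma). In SAMP8 TFQA it was 1.54-fold higher than in SAMR1 water (0.62, SE 0.22, adjusted p = 0.486, limma), and 0.72 without the second TFQA array. Both values were past the study's threshold in 9 of 9 fits that left out 1 array. Without the first SAMP8 water array the strain difference was 1.11 with an adjusted p of 0.0378 (limma), and without the second it was 0.62. Between SAMP8 TFQA and SAMP8 water Gstm2 differed by -0.24 (SE 0.22, adjusted p = 0.846, limma), which became 0.00 without the second SAMP8 water array.

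The neighbouring Gstm1 had close values in the strains. It read 14.14, 14.33 and 14.41 in SAMP8 TFQA, 14.46, 14.32 and 14.41 in SAMP8 water and 14.28, 14.43 and 14.18 in SAMR1 water, and the groups overlapped. Its log2 fold change in SAMP8 water vs. SAMR1 water was 0.10 (SE 0.15, 95% interval -0.22 to 0.42), an interval that ends just above the low end of that of Gstm2; the difference between the 2 genes was not itself tested. The bases just upstream of each start are shown for these neighbours, 250 bases each, 5′ to 3′ on the minus strand of GRCm38.p6, with CCAAT in capitals.
Gstm2, chr3:107986421-107986670: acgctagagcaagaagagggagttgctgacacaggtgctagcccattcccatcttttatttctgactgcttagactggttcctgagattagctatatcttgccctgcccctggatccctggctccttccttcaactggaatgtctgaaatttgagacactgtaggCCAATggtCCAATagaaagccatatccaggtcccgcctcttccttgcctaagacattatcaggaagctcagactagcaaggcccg
Gstm1, chr3:108017974-108018223: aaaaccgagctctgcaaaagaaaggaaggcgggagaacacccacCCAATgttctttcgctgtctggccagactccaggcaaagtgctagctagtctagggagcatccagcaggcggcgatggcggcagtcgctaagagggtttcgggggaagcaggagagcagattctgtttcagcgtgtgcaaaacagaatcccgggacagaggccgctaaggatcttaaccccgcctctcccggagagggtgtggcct
Aligned over 291 columns, the pair shared 145 identical positions (49.8%). Gstm2 held CCAAT at 85 and 77 bases before its start and Gstm1 at 206, and 33.9% of all 250-base upstream windows held CCAAT or its reverse complement. Neither window held TGACNNNGC. These are reference bases of another strain and say nothing of the sequence in SAMP8 or SAMR1.

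Gstm6, with a mean signal at percentile 45.2, was lower, not higher, in the SAMP8 groups. It read 6.11, 5.90 and 6.07 in SAMP8 TFQA, 6.47, 6.42 and 6.09 in SAMP8 water and 6.66, 6.44 and 6.77 in SAMR1 water. The TFQA arrays all lay below the SAMR1 water arrays, and the SAMP8 water arrays overlapped both. Gstm6 was 1.51-fold lower in SAMP8 TFQA than in SAMR1 water (log2 fold change -0.60, SE 0.16, unadjusted p = 0.00345, adjusted p = 0.252, limma), and was past the study's threshold in 9 of 9 fits that left out 1 array; without the second TFQA array it was at -0.53. The separate steps were -0.30 in SAMP8 water vs. SAMR1 water and -0.30 in SAMP8 TFQA vs. SAMP8 water. Gstm7 read 8.94, 9.19 and 9.04 in SAMP8 TFQA, 9.59, 9.44 and 9.37 in SAMP8 water and 8.92, 9.72 and 8.77 in SAMR1 water. Its TFQA arrays lay below all SAMP8 water arrays but inside the wide SAMR1 water range, at -0.41 after TFQA (SE 0.22, adjusted p = 0.728, limma).

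All 7 mu class genes had the lower mean in SAMP8 TFQA than in SAMP8 water, from -0.41 (Gstm7) to -0.10 (Gstm1), with a median of -0.23, and 0 of 7 passed the study's threshold. The 7 were also lower when the arrays, already normalized, were quantile normalized again. Centring each array on its median shifts all genes alike, and with medians of 6.76 to 6.81 it could not turn these signs. Gstm2 was at 0.00 without the second SAMP8 water array. Closely related genes such as these may share probe sequence or cross-hybridise, and their values are not independent. Over the same 2 groups, 13 of 14 hippocampal neuron markers, 11 of 11 choroid plexus markers and 10 of 12 astrocyte markers had the lower mean in SAMP8 TFQA, with median log2 fold changes of -0.43, -0.56 and -0.07. The higher mean was seen in 10 of 10 striatal, 8 of 11 stem cell and newborn neuron and 7 of 11 endothelial markers (medians 1.11, 0.17 and 0.07). The second TFQA array had the lowest mean deviation of its group in hippocampal neuron (-0.50) and choroid plexus markers (-0.54). The part of these markers in the mu class values was not tested.

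**Figure D2:**
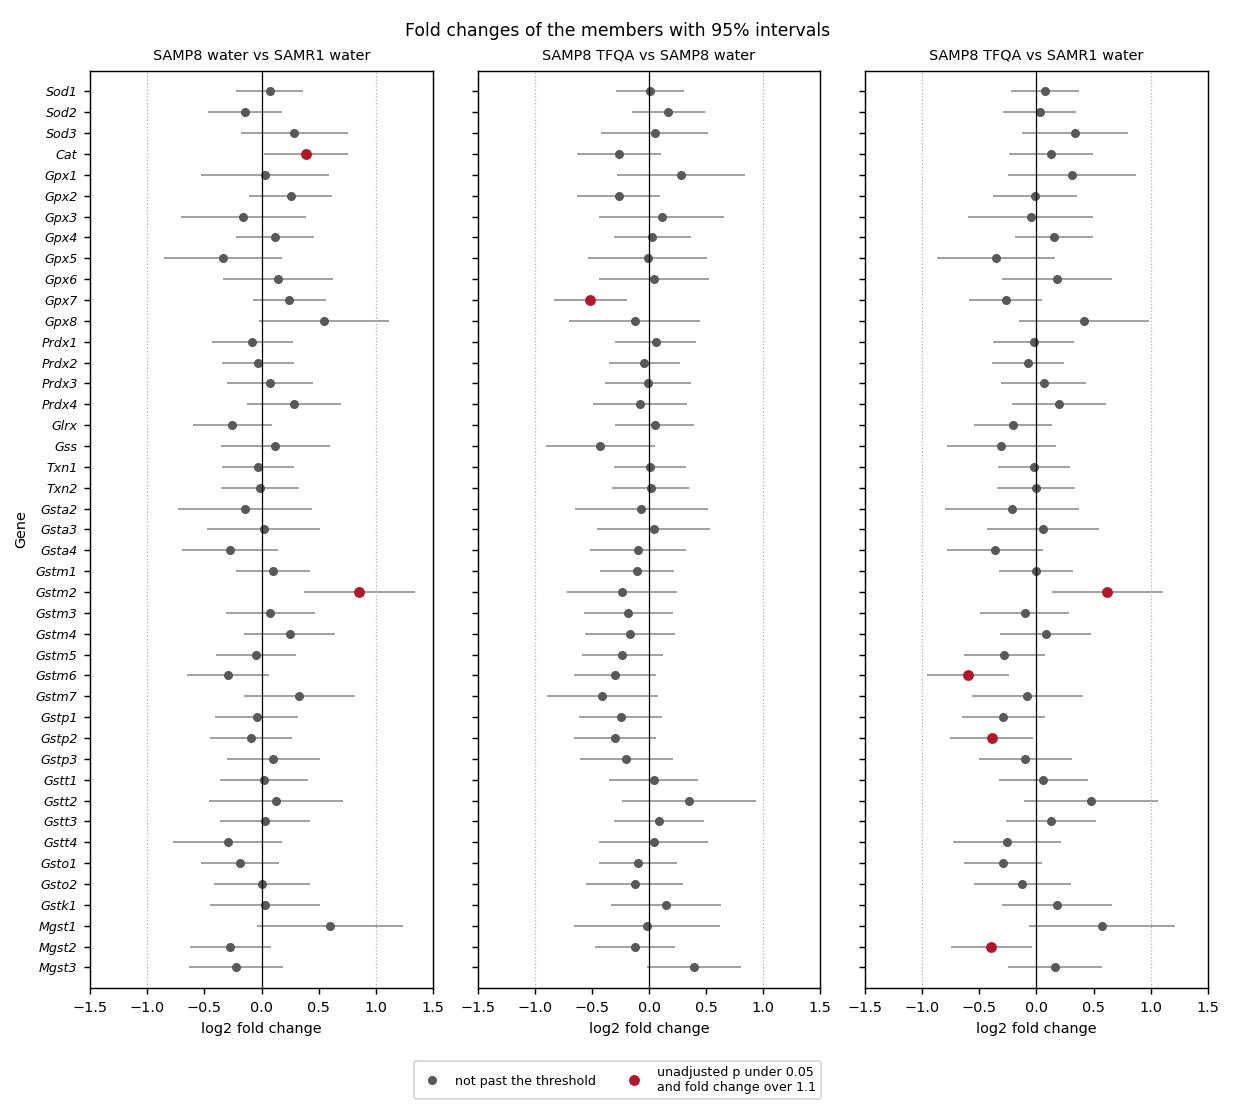
Log2 fold change of each of the 43 genes (points, horizontal axis) with its 95% interval (lines) in the 3 comparisons, with larger red points for genes at an unadjusted p under 0.05 and a fold change over 1.1 and dotted lines at a 2-fold difference. Gstm2 and Cat are marked in SAMP8 water vs. SAMR1 water, Gpx7 alone in SAMP8 TFQA vs. SAMP8 water, and the 7 Gstm points all lie left of 0 in the TFQA panel.

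The pi class, whose best known member is abundant in oligodendrocytes, also had lower means after TFQA. Gstp1 read 11.10, 11.42 and 11.48 in SAMP8 TFQA, 11.59, 11.53 and 11.62 in SAMP8 water and 11.72, 11.77 and 11.38 in SAMR1 water. Each TFQA array lay below each SAMP8 water array, at -0.25 (SE 0.17, adjusted p = 0.781, limma), or -0.13 without the first TFQA array. Gstp2 gave 11.18, 11.11 and 11.50 in SAMP8 TFQA, 11.71, 11.50 and 11.48 in SAMP8 water and 11.71, 11.79 and 11.47 in SAMR1 water, so that the third TFQA array lay among the others. It was 1.31-fold lower in SAMP8 TFQA than in SAMR1 water (-0.39, SE 0.17, unadjusted p = 0.0351, adjusted p = 0.585, limma), past the study's threshold in 5 of 9 fits that left out 1 array and at -0.32, no longer past it, without the second TFQA array. All 3 pi class genes had the lower mean after TFQA than in SAMP8 water (-0.30 to -0.20), also after quantile normalization again. Median centring could not turn these signs, for the reason given for the mu class. Gstp1 and Gstp2 are near-identical neighbours on chromosome 19, and their probes may not tell them apart. Of 10 oligodendrocyte markers, 10 had the lower mean in SAMP8 TFQA relative to SAMR1 water (median -0.25), the comparison in which Gstp2 was past the threshold, and 5 relative to SAMP8 water. Their summed log2 signal was 17.23 to 17.57 in SAMP8 TFQA, 17.08 to 17.46 in SAMP8 water and 17.41 to 18.20 in SAMR1 water, and none was at 0. The second SAMR1 water array stood apart in these markers. Their mean deviation was -0.085, 0.837 and -0.296 in SAMR1 water and -0.028, 0.133 and -0.433 in SAMP8 TFQA. The part of these markers in the pi class values was not tested.

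The alpha, theta, omega and kappa classes gave no member past the study's threshold. Gsta4, which clears the lipid aldehyde hydroxynonenal, read 11.68, 11.35 and 12.01 in SAMP8 TFQA, 11.78, 11.82 and 11.72 in SAMP8 water and 12.33, 11.84 and 11.97 in SAMR1 water. Its SAMP8 water arrays lay below all SAMR1 water arrays, at -0.27 (SE 0.19, adjusted p = 0.932, limma), and the TFQA arrays spread on both sides, at -0.37 relative to SAMR1 water (adjusted p = 0.669, limma) and -0.20 without the second TFQA array, while without the third it was at -0.53 and past the study's threshold. Gsto1, which reduces dehydroascorbate, gave 6.84, 6.53 and 6.89 in SAMP8 TFQA, 6.86, 6.90 and 6.80 in SAMP8 water and 7.02, 6.91 and 7.20 in SAMR1 water. Every SAMP8 array lay below every SAMR1 array by a small margin, with means of -0.29 (adjusted p = 0.679, limma) in SAMP8 TFQA and -0.19 (adjusted p = 0.949, limma) in SAMP8 water. Gstt1 read 5.93, 5.83 and 6.09 in SAMP8 TFQA, 6.02, 5.87 and 5.84 in SAMP8 water and 5.83, 5.61 and 6.23 in SAMR1 water. These overlapped throughout, as did the values of Gstk1, the mitochondrial and peroxisomal form, at 7.72, 8.12 and 7.99 in SAMP8 TFQA, 7.86, 7.97 and 7.56 in SAMP8 water and 7.92, 8.11 and 7.27 in SAMR1 water. The 4 theta genes all had the higher mean after TFQA than in SAMP8 water, from 0.04 (Gstt1) to 0.35 (Gstt2). This held after quantile normalization again, but 3 of them are in the dimmest 40% of transcripts. Median centring moved every gene up alike in this comparison and could not turn these signs.

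The microsomal transferases, membrane proteins with both transferase and peroxidase activity, split. Mgst1 read 9.80, 9.23 and 9.31 in SAMP8 TFQA, 9.53, 9.81 and 9.06 in SAMP8 water and 8.39, 9.56 and 8.66 in SAMR1 water. The SAMR1 water arrays were the most scattered, with the second among the SAMP8 arrays and the others below them. Its pooled SD of 0.453 was the highest of the 43, and the value of 0.60 in SAMP8 water vs. SAMR1 water (SE 0.29, adjusted p = 0.833, limma) became 0.94 without the second SAMR1 water array and 0.36 without the first. Mgst2, which can also make leukotriene, gave 6.45, 6.79 and 6.63 in SAMP8 TFQA, 6.98, 6.64 and 6.62 in SAMP8 water and 7.12, 6.97 and 6.97 in SAMR1 water. All TFQA arrays lay below the SAMR1 water arrays, 1.32-fold lower (-0.40, SE 0.16, unadjusted p = 0.031, adjusted p = 0.565, limma), past the study's threshold in 6 of 9 fits that left out 1 array and at -0.48 without the second TFQA array. Mgst3 read 10.28, 10.76 and 10.25 in SAMP8 TFQA, 10.02, 10.28 and 9.82 in SAMP8 water and 10.31, 10.40 and 10.09 in SAMR1 water. It was 1.31-fold higher after TFQA than in SAMP8 water without passing the study's threshold (0.39, SE 0.19, adjusted p = 0.711, limma), and 0.23 without the second TFQA array.

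**Figure D3:**
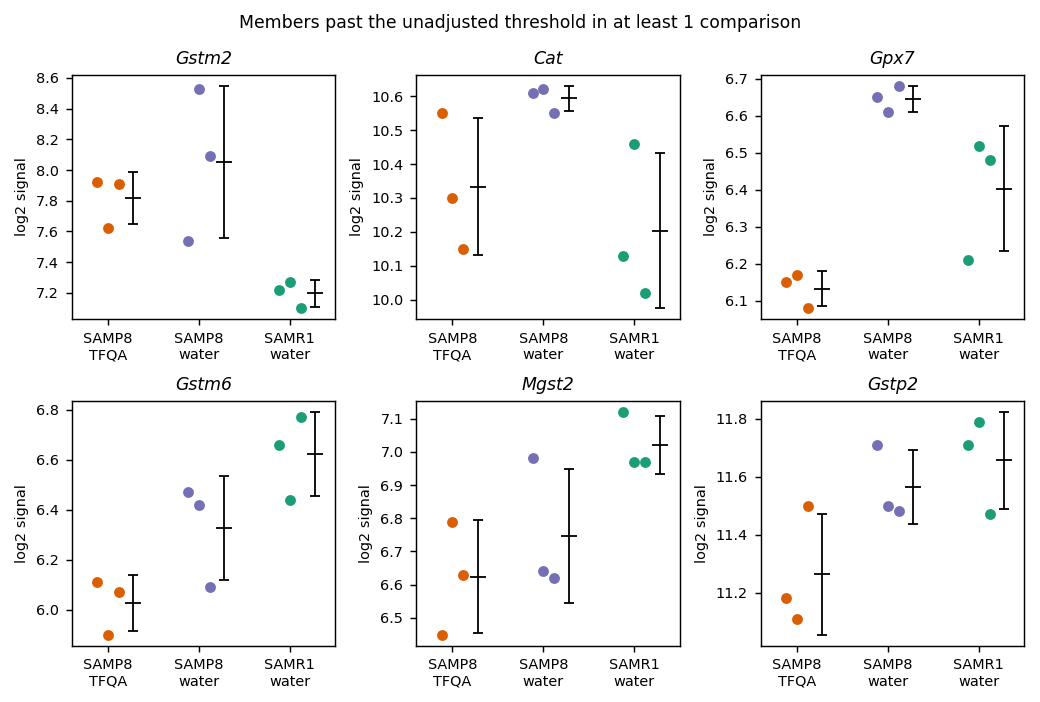
Log2 signal (vertical axis, own scale per panel) of the 6 members past the unadjusted threshold in at least 1 comparison, with 1 point per array and the group mean and SD (bar) beside them. Gpx7 in SAMP8 TFQA (6.08 to 6.17) lies below both water groups, and Gstm2 in SAMR1 water (7.10 to 7.27) lies below both SAMP8 groups.

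Markers of other tissue also differed between the strains. The mean deviation of the 12 meningeal fibroblast markers was 0.27, -0.14 and 0.37 in SAMP8 TFQA, 0.16, 0.65 and 0.12 in SAMP8 water and -0.64, -0.43 and -0.37 in SAMR1 water. The second SAMP8 water array was the highest in this score and also in Gstm2, Gpx8 and Mgst1. The part of these markers in the values of Gstm2, Gpx8, Mgst1 and Cat was not tested. Replicate number 2 was also the highest array of its group in all 3 groups for 7 members (Gpx1, Gpx4, Gpx8, Gstk1, Gstm5, Mgst3 and Prdx1), which is 16.3% of the members against 4.69% of all transcripts, and replicates 1 and 3 were so for 0 members. This pattern was chosen after the values were seen and was given no test.

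For the 6 members with a TGACNNNGC match, the log2 fold change after TFQA was -0.41 in Gstm7, -0.23 in Gstm5, -0.02 in Mgst1, 0.01 in Sod1, 0.04 in Gsta3 and 0.06 in Prdx1. In SAMP8 water vs. SAMR1 water the same genes were at 0.33, -0.05, 0.60, 0.07, 0.02 and -0.08. None of the 6 passed the study's threshold in any comparison.

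The genes around these enzymes were read from 5 lists. Of 13 measured genes listed as sources of superoxide or hydrogen peroxide or as metal chaperones, such as Cybb, Maoa and Ccs, Xdh passed the adjusted test. Xdh encodes xanthine oxidoreductase, which makes urate and, in its oxidase form, superoxide and hydrogen peroxide. It read 7.24, 7.26 and 7.53 in SAMP8 TFQA, 7.04, 7.01 and 6.93 in SAMP8 water and 5.80, 5.27 and 5.77 in SAMR1 water. Every SAMP8 array lay more than 1 log2 unit above every SAMR1 array. Xdh rose 2.60-fold in SAMP8 water vs. SAMR1 water (log2 fold change 1.38, SE 0.18, adjusted p = 0.00192, limma) and 3.32-fold in SAMP8 TFQA vs. SAMR1 water (1.73, SE 0.18, adjusted p = 2.3e-04, limma). In SAMP8 TFQA vs. SAMP8 water it was at 0.35 with an adjusted p of 0.72. Endothelial markers had the same order of groups: 10 of 11 had the higher mean in SAMP8 water relative to SAMR1 water and 11 of 11 in SAMP8 TFQA relative to SAMR1 water, with median log2 fold changes of 0.20 and 0.35. Their summed log2 signal was 13.68 to 13.94 in SAMP8 TFQA, 13.47 to 13.62 in SAMP8 water and 13.19 to 13.44 in SAMR1 water, none was at 0, and their part in the Xdh values was not tested. The strain difference had an adjusted p of 0.0645 when the variances were not moderated, in place of limma's moderated ones. At the study's threshold Ncf1, an organiser of the phagocyte NADPH oxidase, was also higher in SAMP8 water relative to SAMR1 water (0.45, adjusted p = 0.815, limma), and Cybb, its catalytic subunit, was higher in SAMP8 TFQA relative to SAMR1 water (0.49, adjusted p = 0.557, limma). The list's median was 0.19 between the strains (all transcripts -0.01), 0.06 between TFQA and water in SAMP8 (all transcripts 0.01) and 0.11 for SAMP8 TFQA against SAMR1 water (all transcripts -0.01).

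Of 24 measured genes for glutathione synthesis and recycling, 0 passed the adjusted test in any comparison. Slc7a11, the cystine importer that feeds glutathione synthesis, read 11.65, 11.16 and 11.37 in SAMP8 TFQA, 11.69, 12.11 and 11.16 in SAMP8 water and 10.58, 10.99 and 10.76 in SAMR1 water. All SAMP8 arrays lay above all SAMR1 water arrays, at 0.88 in SAMP8 water (SE 0.23, unadjusted p = 0.00273, adjusted p = 0.245, limma) and 0.62 in SAMP8 TFQA (adjusted p = 0.527), and the second SAMP8 water array, highest in meningeal markers, was again the highest. Oplah, which returns oxoproline to glutamate, was at -0.50 in SAMP8 water vs. SAMR1 water (adjusted p = 0.765, limma) and at the same value in SAMP8 TFQA. After TFQA, Gstcd was at -0.72 (adjusted p = 0.639, limma) and Idh1, a source of NADPH, at -0.35 (adjusted p = 0.679, limma). The rate-limiting synthesis genes Gclc and Gclm were at 0.08 and 0.16 after TFQA and at -0.19 and -0.05 between the strains, with adjusted p of 0.86 to 0.99. The list's medians were -0.03 in SAMP8 water vs. SAMR1 water and -0.04 after TFQA.

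Of 20 measured genes of the NRF2 pathway, 0 passed the adjusted test. Nqo1, a quinone reductase and a classic NRF2 target, read 6.32, 6.81 and 6.58 in SAMP8 TFQA, 6.66, 7.0 and 6.78 in SAMP8 water and 6.27, 6.05 and 6.61 in SAMR1 water. SAMP8 water lay above SAMR1 water on every array, at 0.50 (adjusted p = 0.642, limma). Hmox1, heme oxygenase and another target, lay the other way, at -0.40 in SAMP8 water vs. SAMR1 water (adjusted p = 0.806, limma). Nfe2l2, which encodes NRF2, read 4.19, 4.40 and 3.86 in SAMP8 TFQA, 3.50, 3.75 and 3.86 in SAMP8 water and 3.86, 3.76 and 3.86 in SAMR1 water. It was at 0.45 after TFQA (adjusted p = 0.624, limma), but its mean signal stood only at the 10th percentile. Of the 20 genes of the list, 14 had the lower mean after TFQA and 5 the higher (median -0.055). Over all transcripts, 50.9% had the higher mean after TFQA. The activity of NRF2 was not tested. Ephx1, an epoxide hydrolase, was at -0.52 in SAMP8 TFQA vs. SAMR1 water (adjusted p = 0.486, limma).

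Of 21 measured thioredoxin and glutaredoxin partners, 0 passed the adjusted test, and 16 had the higher mean and 5 the lower after TFQA (median 0.14, against 0.01 over all transcripts). Txnip, the inhibitor that binds thioredoxin, read 10.89, 10.65 and 11.32 in SAMP8 TFQA, 10.55, 10.70 and 10.74 in SAMP8 water and 10.18, 10.46 and 10.50 in SAMR1 water. It was the only one of the list past the study's threshold, at 0.57 in SAMP8 TFQA vs. SAMR1 water (adjusted p = 0.414, limma). Of 14 genes listed around selenoproteins (synthesis factors, selenium supply and other selenoproteins such as Selenow), 0 passed the adjusted test. Pstk, the kinase that primes the selenocysteine tRNA, read 8.27, 8.34 and 8.14 in SAMP8 TFQA, 8.66, 9.11 and 9.11 in SAMP8 water and 9.31, 9.04 and 8.44 in SAMR1 water. Each TFQA array lay below every array of both water groups, at -0.71 relative to SAMP8 water (SE 0.22, adjusted p = 0.561, limma) and -0.68 relative to SAMR1 water (adjusted p = 0.402, limma).

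**Figure D4:**
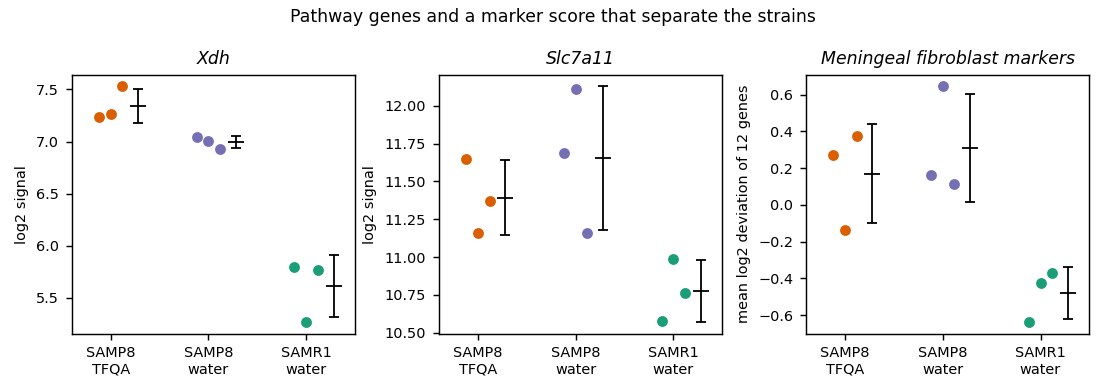
Log2 signal of Xdh and Slc7a11 and the mean log2 deviation of the 12 meningeal fibroblast markers (vertical axes), with 1 point per array and the group mean and SD beside them. Xdh is 6.93 to 7.53 on the 6 SAMP8 arrays and 5.27 to 5.80 on the 3 SAMR1 water arrays, and the marker score is also lowest in SAMR1 water (-0.64 to -0.37).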

How the data were processed

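The 9 arrays were used as deposited by the authors: log2 signals per transcript, normalized with RMA against mm10 per the processing notes. Per the study's methods, normalization was done in the array maker's analysis console with signal space transformation RMA, a variant of RMA. Gene names came from the platform annotation: 19572 transcripts carried 1 symbol, 0 carried several and 2634 had none listed. The 43 members matched RefSeq symbols (GRCm38.p6), and 40 had a promoter window. A gene with several transcripts was to be read by the one with the highest mean.

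All 9 arrays were fitted in limma 3.58.1 (R 4.3.3) with 3 group terms and eBayes, with Benjamini-Hochberg adjustment over 22206 transcripts and no filter. No pseudocount was needed. Alternatives were 2-group fits, a replicate block, trend and robust moderation, unmoderated variances, quantile normalization again, median centring, a filter on the dimmest 40%, array weights and leaving out each array. The script was tested on simulated data. Members given array by array were the 8 with the smallest p in each comparison and the one of highest mean in each family; Sod1 was added after its values were seen. The members and lists were chosen with earlier results of these data known. The main fit did not pair the arrays by replicate number, and whether the numbers pair them was not tested. Depth does not apply to arrays, and their number limits the precision.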

Additional observations from a re-analysis of the deposited data

How the results depend on the processing

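Over 8 other settings of the fit, the count of members at an adjusted p under 0.05 was 0 in every comparison. The count at the study's threshold in SAMP8 water vs. SAMR1 water was 1, instead of 2, with arrays centred on the median, and the lost gene was Cat. In SAMP8 TFQA vs. SAMP8 water it was 2, instead of 1, with only the 2 groups compared, with the replicate number as a block, with trend and robust moderation, with centred arrays and with array weights; the added gene was Gstm7 in the first and Mgst3 in the others. Between the strains the count was 3, instead of 2, with the replicate block, with only the 2 groups, with trend and robust moderation and with unmoderated variances; the added gene was Gpx8 in the first 2, Mgst1 in the next and Gpx7 in the last. For SAMP8 TFQA against SAMR1 water it was 3, instead of 4, with the replicate block, with only the 2 groups and with array weights, and 6 with unmoderated variances, which added Gpx7 and Gsto1. Deviations of arrays with the same number correlated at 6.15e-05 to 0.153, and those of arrays with different numbers at -0.113 to 0.0695. Not every array correlated best with its own number. Whether the numbers pair the arrays was not tested.

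Leaving out 1 array at a time gave 1 to 4 members at the study's threshold in SAMP8 water vs. SAMR1 water, 1 to 3 in SAMP8 TFQA vs. SAMP8 water and 3 to 7 in SAMP8 TFQA vs. SAMR1 water, where 7 was reached without the third SAMR1 water array. The adjusted test gave 0 to 1, 0 to 0 and 0 to 0. The median log2 fold change ranged from -0.035 to 0.065, from -0.0717 to 0.020 and from -0.0317 to 0.00833. Its sign turned without the second SAMP8 water array in the first 2 of these comparisons, also without the first or the third SAMR1 water array in the first, and without the second SAMR1 water array in the last. Single members were followed over the refits only if chosen for a small p in a comparison or the highest mean of a family. Of these 1170 refits, 1124 stayed on their side of the study's threshold, 30 newly passed it and 16 no longer did. Most of the refits were of members that had not passed in the main fit, so the 1124 say little of the calls that had. The 16 losses were all of Cat in SAMP8 water vs. SAMR1 water and of Gstp2 and Mgst2 in SAMP8 TFQA vs. SAMR1 water. The causes were not tested. Reading another transcript of a gene was not run, since each member had 1.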
